A study of Rattus norvegicus with 10 samples.

Results

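The EGF family genes measured here were the ligands Egf, Tgfa, Areg, Ereg, Hbegf and Btc and the receptors Egfr, Erbb2 and Erbb3. They were chosen by name, as every non-control probe of the array whose gene name was one of these 9, which gave 10 probes of 41012, or 9 gene names of 35469. Egfr had 2 probes and every other gene 1. RNA came from the milk whey of 3 F344/N rat dams, milked on d 2, d 9 and d 16 postpartum after separation from their litters and an oxytocin injection, and from their serum, drawn on d 21. No treatments were compared, and the dams had been 14 weeks old at d 14 of pregnancy. Each whey sample was hybridized to its own array (n = 3 per day, the same dams each day), whereas the serum RNA of the 3 dams was mixed and measured on 1 array, so that serum values have no replicate. Each array received cRNA amplified from 100 ng of RNA. Whey is the clear fluid that remains after fat, cells and casein have been removed from milk by centrifugation, and d 2 whey is referred to as colostrum whey.

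EGF family ligands are made as membrane proteins whose outer part is cut off by proteases and then binds receptors of the ErbB family on nearby or distant cells. Ligand binding makes the receptors pair and phosphorylate each other, which starts the Ras to MAP kinase and PI3 kinase pathways, and Erbb2 has no ligand of its own but pairs with the other receptors. Epidermal growth factor is a well-known growth factor of milk that acts on the intestine of the suckling young, and ErbB receptors take part in the growth of the mammary ducts and alveoli.

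The 3 genes detected in whey were read by the following probes, shown with both Egfr probes because those gave different results. Sequences are those of the array annotation, in lower case from the 5′ end. All 60 bases are given for Erbb2 and the first Egfr probe, and the first 30 bases for the others.
Egf: gacttctgcttcttgcttcaagcagtcccg
Hbegf: catctgctctgtaacccatctgtagtaatt
Erbb2: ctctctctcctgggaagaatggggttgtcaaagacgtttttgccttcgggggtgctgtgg
Egfr, first probe: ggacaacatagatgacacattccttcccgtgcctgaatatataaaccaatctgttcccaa
Egfr, second probe: tggtcttcgaactgtgaagattccactgaa

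On rat genome build rn4, the Egf probe lies at chr2:227104446-227104505 (minus strand), the Hbegf probe at chr18:29143654-29143713 (minus strand) and the Erbb2 probe at chr10:87241824-87241883 (plus strand). The first Egfr probe is placed at chr14:97786789-97787499, a span of 711 bases for a probe of 60 bases, so that it lies across at least 1 intron. The second Egfr probe lies downstream at chr14:97788051-97788110, on the same plus strand. The probes of Tgfa (chr4:120437505-120437564), Btc (chr14:18233593-18233652), Areg (chr14:18466438-18466497), Ereg (chr14:18521343-18522341) and Erbb3 (chr7:1859093-1859343) complete the family. Btc, Areg and Ereg lie within 288.7 kb of chromosome 14. Whether the probes lie in coding or untranslated parts was not annotated here. The G and C content of the 10 probes was 31.67% to 55%, against a median of 43.33% over all probes. Egf, Erbb2 and the first Egfr probe were printed as 10 spots on each array and the other probes as 1 spot.

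Whey arrays differed in brightness. The 75th percentile of the processed signal, which is the spot intensity after background subtraction, was 12.5 to 83.2 on the whey arrays and 4.11 on the serum array. Detection in a group required 1 or more of its arrays on which the scanner software flagged the probe as well above background and the processed signal exceeded 20. On single whey arrays 8131 to 15585 probes met this, and in serum 3529. Slide 1 held the d 2 arrays of dams 1 and 2, slide 2 the d 2 array of dam 3 and all d 9 arrays, and slide 3, scanned on a later day, all d 16 arrays and the serum pool. Day and slide therefore cannot be told apart for d 16. All 5 mammary secretory markers (Csn2, Lalba, Wap, Csn1s1 and Csn3) were detected in whey of each day and also in the serum pool.

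Egf, Hbegf and Erbb2 were detected in whey, 3 of the 9 genes (33.3%), where 41.1% of all probes and 40.2% of all gene names were detected. None of the 9 was detected in the serum pool, where 8.60% of all probes were. Erbb2 was the 1 member well above background on all 9 whey arrays, which 23.9% of all probes were. Of the 10 probes, 6 were not well above background on any whey array.

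**Figure D1:**
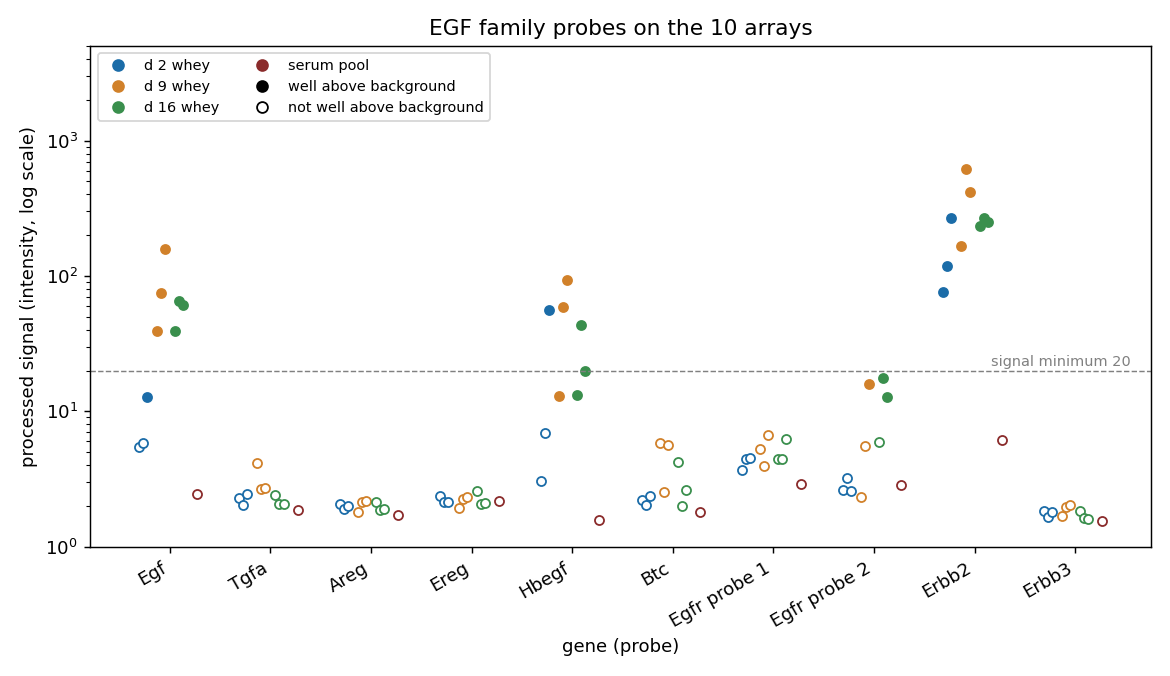
Processed signal (intensity, log axis) of the 10 EGF family probes on each of the 10 arrays, coloured by group, with filled points well above background and open points not. Egf, Hbegf and Erbb2 rise above the signal minimum of 20 on some or all whey arrays, the second Egfr probe stays under it, and no serum point is filled.

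Among the ligands, Egf, which encodes the precursor of epidermal growth factor, was low in colostrum whey and higher in mature milk whey for equal masses of RNA. Its processed signal in dams 1, 2 and 3 was 5.48, 5.83 and 12.8 on d 2, 39.3, 74.5 and 157.6 on d 9, and 39.2, 65.3 and 61.2 on d 16. All 6 later values were thus above all 3 values of d 2. The serum value of 2.44 was not well above background. After quantile normalization the log2 signal was 3.22, 2.77 and 3.46 on d 2 (3.15 ± 0.35, SD, n = 3), 5.45, 5.37 and 5.41 on d 9 (5.41 ± 0.04) and 5.43, 5.22 and 5.40 on d 16 (5.35 ± 0.11). The dams were close to each other on both later days and spread more widely on d 2.

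The change in Egf exceeded the spread between dams. From d 2 to d 9 the fitted log2 signal rose by 2.26 (SE 0.18, 4.79-fold, limma adjusted p = 0.000828), and from d 2 to d 16 by 2.20 (4.61-fold, limma adjusted p = 0.000389). These values are set against a d 2 level that was well above background on 1 of 3 arrays, and in dam 3, whose array that was, the rises were 1.95 and 1.94. On d 2, 0 of 3 arrays met the detection rule, so Egf entered the test through d 9 and d 16 alone. With every value raised to at least the lowest signal well above background on its array, the rise was 1.79 to d 9 and 1.73 to d 16 on the log2 scale. It was higher in 3 of 3 dams in both comparisons, without overlap between days. Of all probes tested, 17.7% passed from d 2 to d 9 (11.2% higher and 6.46% lower on d 9), and 38.8% showed no overlap. From d 2 to d 16, 28.5% passed (16.0% higher and 12.5% lower), and 48.2% showed no overlap. Between d 9 and d 16 the difference in Egf was -0.06 (95% interval -0.47 to 0.35, limma adjusted p = 0.892). The order of the levels was d 9, d 16 and d 2, in which d 9 and d 16 did not differ beyond their spread.

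The 10 spots of Egf on each array give the spread among spots within an array, and not the error between arrays. In colostrum whey, 8 of the 30 spots were well above background, 7 of them on the array of dam 3, against 30 of 30 on d 9 and 30 of 30 on d 16. On the 6 later arrays the SD of log2 processed signal among the 10 spots was 0.05 to 0.09, and on d 2 it was 0.32 to 0.54.

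**Figure D2:**
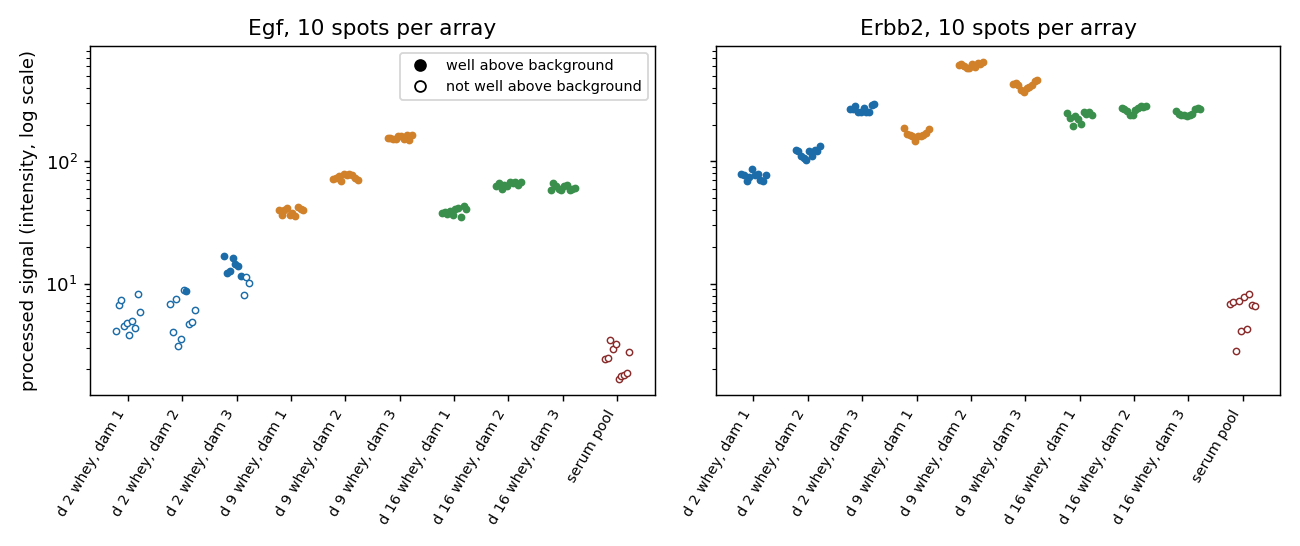
Processed signal (intensity, log axis) of each of the 10 spots of Egf (left) and Erbb2 (right) on each array, with filled points well above background and open points not. The Egf spots of d 2 scatter near background and mostly stand open, those of d 9 and d 16 are tight and all filled, and the Erbb2 spots are filled on every whey array and open in serum.

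The rise of Egf passed in each of 21 alternative fits for d 9 and 20 for d 16, with limma adjusted p (Tukey-Kramer in 1 fit) of 3.57e-05 to 0.0107 and 7.11e-05 to 0.00415. Its size depended on the scale, being 0.59 to d 9 with the normexp background correction and 3.72 with scaling to the spike-in probes. The normexp setting also added a constant to every signal, which narrows log2 differences between low signals. Within slide 2, the d 2 array of dam 3 had a log2 signal of 3.46 and the 3 d 9 arrays 5.37 to 5.45, and with the slide in the model the rise to d 9 was 1.95 (limma adjusted p = 0.00612). Since equal masses of RNA were amplified, more Egf RNA and less of other RNA cannot be told apart. The paper reported much more RNA per volume in colostrum whey than later, so the rise is not shown per volume of whey. Cells had been removed from the whey, so the values give neither numbers of cells nor RNA per cell.

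RNAs of genes used as cell type markers also moved over the same days. Of 6 macrophage markers 5 were tested, and all 5 changed between d 2 and both later days, with Cd68, C1qa, C1qb and Fcer1g higher and Cd14 lower, while Csf1r was not detected. The summed quantile-normalised signal of all 6, on a linear scale, was 341 to 456 on d 2, 316 to 704 on d 9, 1103 to 1620 on d 16 and 8526 in serum. Of 5 luminal markers, Krt8, Krt18 and Krt19 fell from d 2 to both later days, and Epcam and Cdh1 did not pass the test. Of the mammary secretory markers, none passed on d 9. For equal masses of RNA, Csn2 (1.05), Lalba (1.02) and Wap (0.70) rose from d 2 to d 16 on the log2 scale. By quantitative PCR in equal volumes, the paper reported more Lalba in colostrum whey than later, and no change in Csn2 and Wap. On the arrays, the lymphocyte gene Cd3g also rose by 1.16 from d 2 to d 16 and the platelet gene Pf4 fell by 1.73. Each was the single marker of its list that was tested. The part of these lists in the Egf difference was not tested. Among kidney markers, chosen because kidney is a main site of Egf expression, Umod, Slc12a1 and Slc12a3 were not detected in any group, and Aqp2 was detected in all and passed in neither comparison with d 2.

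Hbegf, the heparin-binding member of the ligands, was detected in whey but varied among dams. Its processed signal in dams 1, 2 and 3 was 3.05, 6.95 and 56.0 on d 2, 13.1, 58.6 and 93.2 on d 9, and 13.3, 43.1 and 19.7 on d 16, against 1.57 in serum. It was well above background on 7 of the 9 whey arrays, on d 2 only in dam 3. The log2 signal was 2.26, 3.09 and 5.54 on d 2 (3.63 ± 1.70, SD, n = 3), 3.90, 5.03 and 4.73 on d 9 (4.56 ± 0.59) and 3.85, 4.67 and 3.83 on d 16 (4.12 ± 0.48). The d 2 values spanned those of both later days, with the highest and the lowest of the 9 values.

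No difference in Hbegf between days passed the test. The log2 change was 0.93 from d 2 to d 9 (SE 0.77, 95% interval -0.87 to 2.72, limma adjusted p = 0.426), 0.49 from d 2 to d 16 (limma adjusted p = 0.668) and -0.44 from d 9 to d 16 (limma adjusted p = 0.797). The order was d 9, d 16 and d 2, and no neighbours in it differed beyond their spread. Without the d 2 array of dam 3, the difference between d 9 and d 2 passed (limma adjusted p = 0.0329). Hbegf was then not well above background on either remaining d 2 array, so that the fitted 1.88 is no measured change. In dam 1 the d 9 value of 3.90 was under 4.11, the lowest signal well above background on its d 2 array. No fold is therefore given. With scaling to the spike-in probes the fitted change to d 9 was 2.25 (limma adjusted p = 0.0138), again with 1 of 3 d 2 arrays well above background.

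The other ligands were not detected. Over the 9 whey arrays the processed signal was 2.04 to 4.17 for Tgfa, which encodes transforming growth factor alpha, 1.81 to 2.17 for Areg (amphiregulin), 1.93 to 2.59 for Ereg (epiregulin) and 1.99 to 5.86 for Btc (betacellulin). None of these probes was well above background on any array, and the lowest signal of any probe that was well above background was 7.56 to 10.01, depending on the array. In serum their signals were 1.85, 1.71, 2.19 and 1.80. The genes of Btc, Areg and Ereg, which lie next to each other on chromosome 14, were thus all at background in every sample. A value at background is a bound for this probe and amount of RNA and not a statement that the RNA is absent.

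Among the receptors, Erbb2, the partner receptor without a ligand of its own, had a signal on every whey array. Its processed signal in dams 1, 2 and 3 was 76.0, 117.8 and 269.9 on d 2, 167.1, 613.2 and 419 on d 9, and 233.2, 267.4 and 251.5 on d 16, against 6.18 in serum. All 88 usable spots in whey were well above background and 0 of 10 in serum. The log2 signal was 7.23, 7.06 and 7.73 on d 2 (7.34 ± 0.35, SD, n = 3), 7.49, 8.28 and 6.74 on d 9 (7.50 ± 0.77) and 7.99, 7.23 and 7.39 on d 16 (7.54 ± 0.40). The days overlapped, and d 9 held both the highest value, in dam 2, and the lowest, in dam 3.

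Erbb2 did not pass the test between days. The log2 change was 0.16 from d 2 to d 9 (SE 0.40, 95% interval -0.75 to 1.08, limma adjusted p = 0.797), 0.20 from d 2 to d 16 (95% interval -0.72 to 1.12, limma adjusted p = 0.742) and 0.03 from d 9 to d 16 (95% interval -0.89 to 0.95, limma adjusted p = 0.976). The order was d 16, d 9 and d 2, and no neighbours in it differed beyond their spread. The SD of log2 processed signal among the 10 spots of an array was 0.06 to 0.14, smaller than the SD of 0.35 to 0.77 between dams of a day. The latter also holds the error between arrays, which was not measured. With scaling to the spike-in probes alone, Erbb2 passed from d 2 to d 9, with a rise of 1.67 (limma adjusted p = 0.0476).

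**Figure D3:**
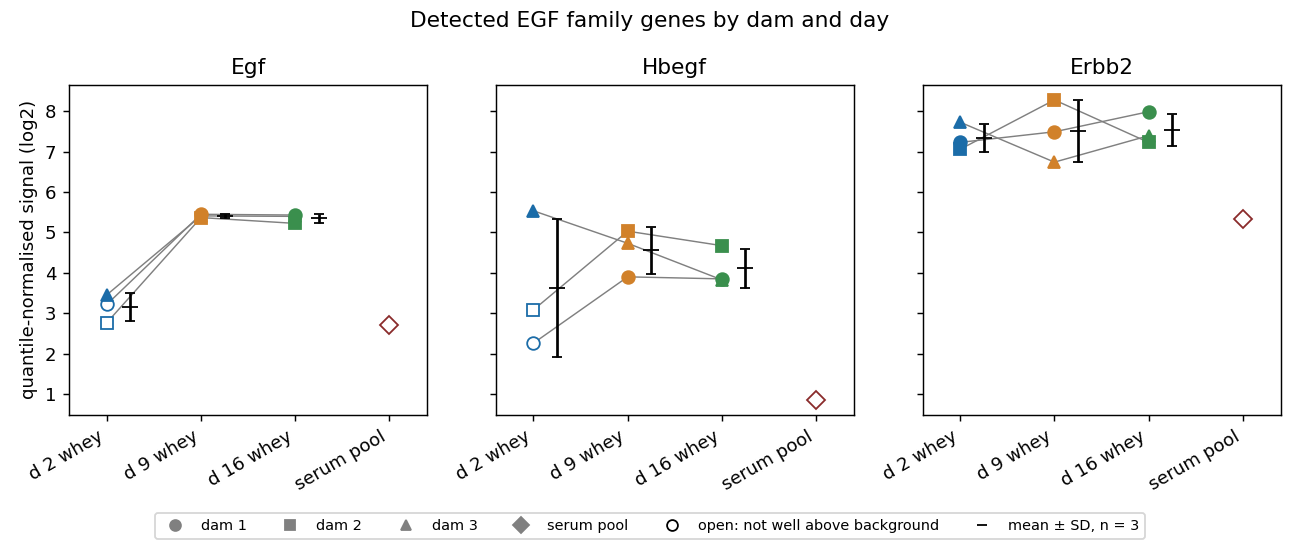
Quantile-normalised log2 signal of Egf, Hbegf and Erbb2 in each dam (symbols joined by lines) on d 2, d 9 and d 16 and in the serum pool, with the mean ± SD of the 3 dams beside each day and open symbols for arrays on which the probe was not well above background. Egf rises in every dam from d 2 and lies between 5.22 and 5.45 on the later days, whereas the lines of Hbegf and Erbb2 cross.

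Scaling to the spike-in probes moved all genes together. Under it the median log2 change of all probes tested was 1.52 for d 9 against d 2, 0.58 for d 16 against d 2 and -0.93 for d 16 against d 9, compared with 0.11, 0.04 and -0.06 with quantile normalization. The spike-in values of 3.72 for Egf, 2.25 for Hbegf and 1.67 for Erbb2 are to be read against that median of 1.52.

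The probes of Egfr, the receptor of Egf, gave different results. The first probe, with 10 spots, had a processed signal of 3.71 to 6.67 in whey and 2.92 in serum, and 2 of its 82 usable whey spots were well above background. The second probe read 2.62, 3.23 and 2.59 on d 2, 2.32, 5.53 and 15.8 on d 9, and 5.95, 17.5 and 12.7 on d 16 in dams 1, 2 and 3, against 2.85 in serum. It was well above background on 3 of the 9 whey arrays, dam 3 on d 9 and dams 2 and 3 on d 16, but under the signal minimum of 20 on all of them. Without that minimum 4 of the 9 genes were detected in whey, Egfr being the fourth, and with a minimum of 100 it was 2, Egf and Erbb2. Egfr was not tested between days in the chosen analysis. With no filter on low values, the second probe passed between d 2 and d 16 (limma adjusted p = 0.0433). It was not well above background on any d 2 array, and its d 16 mean of 3.13 (log2) did not exceed the mean of 3.46 of the lowest signals well above background on the d 2 arrays, so no fold is given. Erbb3, a receptor for neuregulins with little kinase activity of its own, read 1.61 to 2.03 in whey and 1.55 in serum and was not well above background on any array.

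Of the 3 genes tested, Egf alone passed in both comparisons with d 2, and 0 of 3 passed between d 9 and d 16 by limma, where 1.42% of all probes passed (0.558% higher and 0.861% lower on d 16). The days d 9 and d 16 overlapped for all 3 genes, whereas 29.4% of all probes showed no overlap there. In that last comparison 0 of 3 had an unadjusted p under 0.05, and 0 passed the Tukey-Kramer test. In the F test over the 3 days Egf passed (limma adjusted p = 0.000581), as did 25.6% of all probes, while Hbegf (0.603) and Erbb2 (0.897) did not.

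Against the serum pool, the difference could be bounded for Erbb2 alone. Its log2 signal was 7.46 ± 0.48 (SD, n = 9) in whey and 5.34 in serum, and all 9 whey arrays were above the serum array. Because the serum signal was not well above background, the whey mean was set against the lowest signal that was, which made Erbb2 at least 3.05-fold higher in whey on the quantile-normalised scale, or 2.80-fold for d 2 alone. Against the serum value itself, the log2 difference was 1.22 with normexp, 2.44 with scaling to the 75th percentile and 5.25 with the spike-in probes. The bound was computed on the quantile-normalised scale only. On the same scale Egf read 2.71 and Hbegf 0.86 in serum, below background, and their whey levels did not exceed the lowest signal well above background on the serum array, so that no fold is given. With 1 serum array there is no test.

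The genes most like Erbb2 over the 9 whey arrays were Vangl2 (Pearson r = 0.98), a planar cell polarity gene, Olr384 (r = 0.98), an olfactory receptor gene, and Edem1 (r = 0.97), which takes part in the disposal of misfolded glycoproteins. They were the highest of 3024 probes compared, all of which share the same 9 arrays, dams and normalization. Like Erbb2, they varied more on d 9 than between the means of the days, with a log2 SD among dams of 0.80, 0.65 and 0.82 on d 9.

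A list of 58 other genes of the ErbB pathway was described beside the family. The array held 53 of them, and 40 (75.5%) were detected in whey and 7 in serum. From d 2 to d 9, 8 were higher and 3 lower (27.5% of 40, against 17.7% of all probes), and the median log2 change was 0.12 against 0.11 over all probes. From d 2 to d 16, 10 were higher and 4 lower (35.0%, against 28.5%), with a median of 0.16 against 0.04. From d 9 to d 16, 0 were higher and 1 lower (2.50%, against 1.42%), with a median of -0.04 against -0.06.

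Of the remaining ligands and the receptor Erbb4, 4 were on the array, and neither Nrg1 nor Erbb4 was detected. Nrg2, a neuregulin, was measured on all 9 whey arrays and in serum too, with log2 changes of 0.45 to d 9 and 0.25 to d 16 that did not pass the test. Nrg3 was detected on 1 array. Of the shedding and trafficking genes, 3 of 5 were detected. Adam17, the protease that releases several of the ligands, was well above background on 2 of the 9 whey arrays only. It did not pass the test, and its fitted changes of 0.96 to d 9 and 0.08 to d 16 rest mostly on values at background. Rhbdf1, which encodes an inactive rhomboid protein that brings Adam17 to the cell surface, had a fitted rise of 1.62 to d 16 (limma adjusted p = 0.0480). It was well above background on 7 of the 9 whey arrays. Its log2 mean on d 2 was 3.03, under 3.46, the mean of the lowest signals well above background on the d 2 arrays.

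The negative regulators held the largest changes of the list, in both directions. Of 8 detected, 3 rose and 2 fell from d 2 to d 9, and again 3 and 2 from d 2 to d 16 (62.5%, against 17.7% and 28.5% of all probes). Dusp6, a phosphatase that switches off the MAP kinase ERK, had a log2 signal of 9.77 ± 0.10 on d 2, 7.22 ± 0.12 on d 9 and 7.14 ± 0.40 on d 16. It fell by 2.54 to d 9 (SE 0.20, limma adjusted p = 0.000828) and by 2.62 to d 16 (limma adjusted p = 0.000312), with no overlap between d 2 and either later day. Dusp5, another of the 8, rose by 0.79 to d 9 (limma adjusted p = 0.0346) and by 1.26 to d 16 (limma adjusted p = 0.00411). It was well above background on all 9 whey arrays. Spry2, a Sprouty inhibitor of receptor signalling, was not well above background on any d 2 array and was on all 6 later arrays. On the quantile-normalised scale it was at least 2.38-fold higher on d 9 (limma adjusted p = 0.0168) and at least 2.49-fold higher on d 16 (limma adjusted p = 0.00951). With normexp the fitted log2 changes of Spry2 were smaller, 0.39 and 0.42, so these bounds are for the former scale. With the slide as a block, which can be fitted for d 9 only, Dusp6 still passed (limma adjusted p = 0.00708) and Spry2 did not (limma adjusted p = 0.171).

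Cblb, a ubiquitin ligase that takes receptors to degradation, rose by 1.94 to d 9 (limma adjusted p = 0.0336) and by 1.80 to d 16 (limma adjusted p = 0.0297), and was well above background on 2 of 3 arrays on d 2. With the slide as a block it missed the threshold on d 9 (limma adjusted p = 0.330). Spred1, an inhibitor of Ras signalling, passed as lower on d 9 (limma adjusted p = 0.0452), but was well above background on 1 whey array only, on d 2, so no fold is given. Its call on d 9 was lost in 14 of 20 alternatives. Errfi1, which binds and inhibits Egfr, was well above background on all 9 arrays, with changes of -0.16 and -0.02 that did not pass the test.

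Of the adaptors and kinases 19 of 21 were detected, and 4 rose and 0 fell in both comparisons with d 2 (21.1%, against 17.7% and 28.5% of all probes). Hras, a Ras gene, rose by 0.42 to d 9 and 0.44 to d 16, and Pik3ca, a catalytic subunit gene of PI3 kinase, by 1.07 and 1.00. Akt1 passed on d 9 alone (0.79) and Shc1 on d 16 alone (0.49), and neither differed between d 9 and d 16 by the test (limma adjusted p = 0.287 and 0.203). Map2k1 and Map2k2, MAP kinase kinases below Ras, did not pass in either comparison, with changes of -0.30 to 0.29. Pathway genes named beyond the 3 largest rises and 3 largest falls of each comparison were chosen after their values were seen.

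Among the target genes 8 of 10 were detected, and 1 rose and 1 fell on d 9 (25%, against 17.7% of all probes) and 2 rose and 2 fell on d 16 (50%, against 28.5%). Etv5, a transcription factor gene induced by ERK signalling, fell from 7.05 ± 0.13 on d 2 to 4.75 ± 0.15 on d 9 and 5.17 ± 0.30 on d 16 (log2 signal). The changes were -2.30 (limma adjusted p = 0.000821) and -1.88 (limma adjusted p = 0.000593), without overlap. Ccnd1, which encodes cyclin D1, was 7.45 ± 0.25 on d 2, 6.92 ± 0.36 on d 9 and 5.21 ± 0.46 on d 16. It fell by 2.24 from d 2 to d 16 (limma adjusted p = 0.00157) and by 1.71 from d 9 to d 16 (limma adjusted p = 0.0354), but the latter change missed the threshold with the dam as a block (limma adjusted p = 0.0574). Ier3, an immediate early gene, rose by 1.14 to d 9 (limma adjusted p = 0.0399) and by 1.75 to d 16 (limma adjusted p = 0.00581), and the first missed the threshold with the dam (limma adjusted p = 0.0552) or the slide (limma adjusted p = 0.233) as a block. Junb, another immediate early gene, rose by 1.40 to d 16 (limma adjusted p = 0.0264), and its change of 1.12 to d 9 did not pass. Fos, Jun, Egr1 and Myc, also immediate early genes, were well above background on all 9 arrays and passed in neither comparison, with changes of -0.73 to 0.05.

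**Figure D4:**
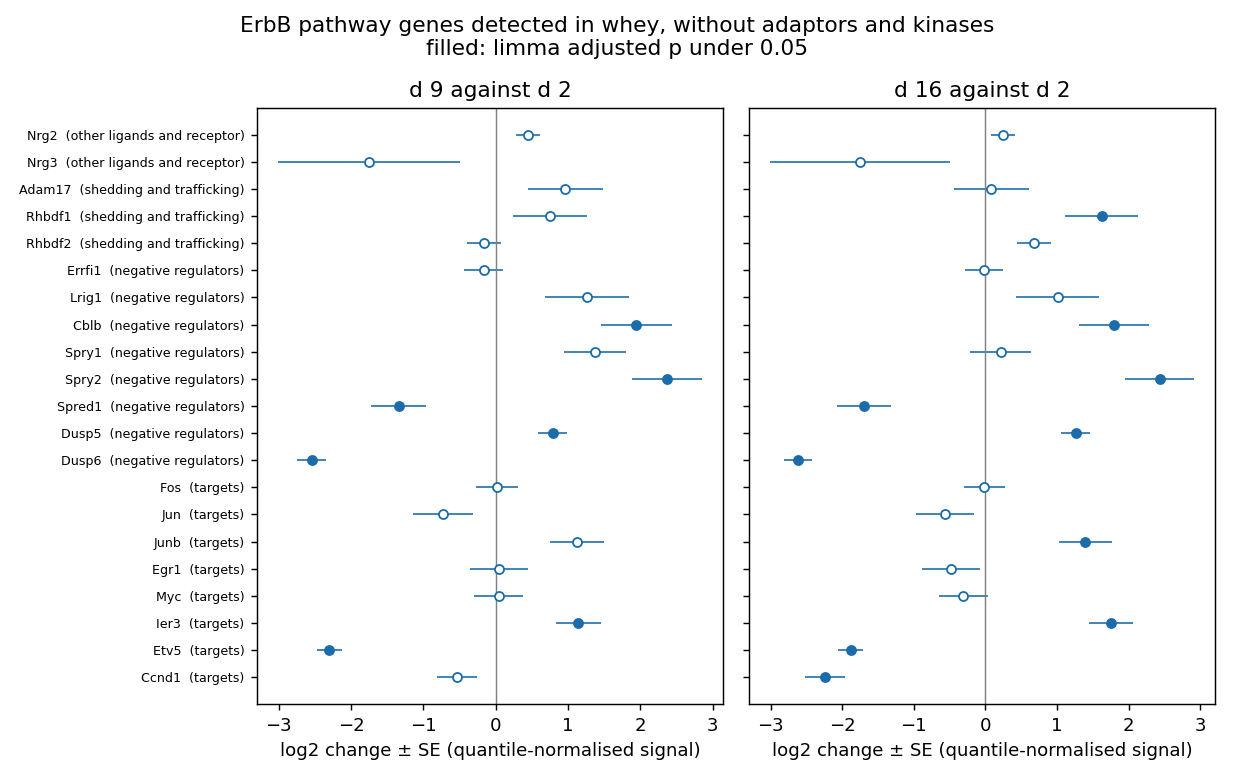
Log2 change ± SE of the 21 ErbB pathway genes detected in whey other than adaptors and kinases, on d 9 (left) and d 16 (right) against d 2, grouped by role, with filled points for a limma adjusted p under 0.05. Dusp6 and Etv5 lie farthest to the left and Spry2 farthest to the right on d 9, and Fos and Errfi1 lie near 0.

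The pathway counts depended on the settings more than the Egf result did. With scaling to the spike-in probes 17 pathway genes passed for d 9 and 3 for d 16 against d 2, and Dusp6 and Etv5 then passed in neither comparison (limma adjusted p = 0.0622 to 0.330). Their log2 changes under it were -1.10 and -2.10 for Dusp6 and -0.92 and -1.32 for Etv5, to be read against medians of 1.52 and 0.58 over all probes. Both comparisons share the d 2 arrays, so the values of the later days are not independent of each other.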

How the data were processed

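Scanner files of 10 1-colour arrays were used. The deposited values are linear intensity readings per spot, which the authors extracted with Agilent Feature Extraction 9.5.3.1 (submitters' processing notes). The processed signal, per the file headers, is this intensity less its background, not normalized between arrays, and the flags of 0 or 1 are other values of that software. A deposited table of the whole series has 10 sample columns whose names match no sample label and was not used. Spots flagged as outliers (93 to 121 per array) were left out, spots of a probe were averaged, and log2 values were quantile normalized over all arrays, as in the study's methods. The present call of another program in those methods was replaced by the well above background flag, required for the majority of a probe's spots, with a processed signal above 20.

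Days were compared on the 9 whey arrays with limma 3.58.1 (R 4.3.3, data.table version 1.17.8, jsonlite 2.0.0; two-sided moderated contrasts, 1.82 prior degrees of freedom), Benjamini-Hochberg adjusted over the 16849 probes detected in whey, with a threshold of 0.05. The code was tested on simulated data. Counts took 1 probe per gene, the one well above background on most whey arrays. Beside the 9 members, the text names for each comparison up to 3 rises and 3 falls among pathway genes that passed, and the 3 probes most correlated with a member measured on all 9 arrays (log2 SD of at least 0.3). Members and lists were chosen with earlier results of these data known. Replicate numbers are dams, from the sample titles and methods, so they pair the samples. Deviations of the same dam correlated at -0.02 to 0.22 (9 pairs) and of different dams at -0.25 to 0.16 (18 pairs). All 10 probe accessions matched the members' symbols in a RefSeq table of assembly GRCr8. Scaling, background correction, filters, blocks, tests and single arrays were varied. Some genes of the lists are not reported here by name. The number of arrays limits the precision.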

Additional observations from a re-analysis of the deposited data

How the results depend on the processing

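The direction and the call of the Egf rise from d 2 were kept under every alternative that could test it. Keeping only probes measured above background on all 9 whey arrays left Egf untested, so that 0 family genes passed for d 9 and d 16 against d 2 and in the F test. Scaling to the spike-in probes gave 3 family genes from d 2 to d 9, 2 in the F test, and 17, 3 and 1 pathway genes in place of 11, 14 and 1. No filter on low values gave 2 family genes from d 2 to d 16, and 6 pathway genes from d 2 to d 9 and 0 between d 9 and d 16. With only the arrays of both days these were 5 and 0, and with the methods' Tukey-Kramer test 3, 6 and 0 over the 3 comparisons. The slide as a fixed block gave 3 pathway genes to d 9 and turned Hbegf to -0.98 and Erbb2 to -0.22. Normexp gave 2 pathway genes from d 9 to d 16 and turned Hbegf to -0.0016 from d 2 to d 16. Erbb2 from d 9 to d 16 was -0.052 with scaling to the 75th percentile and -0.89 with the spike-in probes. The log2 difference to serum was 3.70 and 0.32 for Egf and 5.25 and 1.22 for Erbb2 with spike-in and normexp, and 0.94 and 0.22 for Hbegf with the 75th percentile and normexp, all set against serum values below background and so not folds. Leaving out 1 array at a time gave 1 to 2 family genes from d 2 to d 9, and 2 to 8, 7 to 14 and 0 to 1 pathway genes. The pathway count from d 2 to d 9 was 7, 3 and 7 without d 2 dams 1, 2 and 3, 5, 2 and 6 without d 9 dams 1, 2 and 3, and 7 and 6 without d 16 dams 2 and 3. From d 2 to d 16 it was 7 without d 2 dam 2 and 9 without d 16 dam 2 or 3. The single count from d 9 to d 16 became 0 without d 2 dam 2, d 9 dam 2 or 3, or d 16 dam 1 or 3. In the same refits Egf from d 9 to d 16 was -0.10 to 0.0054, Hbegf from d 2 to d 16 -0.19 to 1.44, and Erbb2 -0.22 to 0.55, -0.028 to 0.39 and -0.35 to 0.42 over the 3 comparisons. Leaving out the brightest d 2 and d 9 arrays, an alternative chosen after seeing the data, gave 4 pathway genes to d 9 and 2.42 for Egf. With the dam as a replicate block 1, 1 and 0 family genes and 9, 13 and 0 pathway genes passed, and beside Ccnd1 and Ier3 no call changed among the members and the pathway genes named by rule. The causes were not tested.

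Depth limits most of the family. The probes of 5 genes and the first Egfr probe gave only a bound, Egf was measured on 1 of 3 arrays of d 2, and Hbegf rests on 1 spot per array.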

Other observations

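The genes whose pattern over the 9 whey arrays was most like that of Egf were Glo1 (Pearson r = 0.99), which encodes glyoxalase I, Cdc37l1 (r = 0.99), a relative of the chaperone partner Cdc37, and Chp (r = 0.99), a calcium-binding protein gene. They came from 4066 probes above background on all 6 later arrays, a pool set after the Egf values were seen. Glo1 had a log2 signal of 9.43 ± 0.03 (SD, n = 3) on d 2, 10.45 ± 0.03 on d 9 and 10.46 ± 0.04 on d 16. Cdc37l1 had 5.42 ± 0.09, 6.34 ± 0.06 and 6.29 ± 0.07. That they share the pattern of Egf was fixed by this choice, and the points share arrays, dams and normalization.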
